A study of Mus musculus with 6 samples.

Results

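The data presented here concern 9 mRNAs of the DNA damage response, *Mre11a*, *Atm*, *Atr*, *Chek1*, *Chek2*, *Brca1*, *Brca2*, *Trp53* and *Trp63*, in polysomal and non-polysomal RNA of mouse oocytes. They were chosen by gene symbol, and all 9 were found among the 25899 genes of the expression table. The oocytes came from aged females (AF), which the sample labels describe as CD1 mice of 58 weeks, whereas the study's methods name ICR mice and give the age in months. No genotype other than the strain is given. All females had received pregnant mare serum gonadotropin, and the oocytes were denuded, released from the IBMX block that holds them in prophase and cultured for 180 min, so that the nuclear envelope had broken down (NEBD). Cycloheximide at 0.1 mg/ml, which halts ribosomes on the mRNA, was added to all samples before lysis. For each sample, lysate of 200 oocytes was spun through a sucrose gradient, from which 10 fractions were taken. These were combined into a non-polysomal pool (NP, free RNA and RNA bound to single ribosomes) and a polysomal pool (P, RNA carrying several ribosomes). There were 3 NP and 3 P libraries, and oocytes of young females were not analysed here. Nothing in the labels says whether the 3 samples of a fraction came from separate animals or cultures, so the p-values measure only the spread between these samples.

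The DNA damage response detects broken or under-replicated DNA and slows the cell cycle while repair proceeds. The MRE11 complex and single-stranded DNA recruit the apical kinases ATM and ATR, which activate CHK2 and CHK1. These restrain the CDC25 phosphatases, and BRCA1 and BRCA2 direct repair by homologous recombination. In oocytes the p53 family, above all the p63 form TAp63, decides on the death of damaged cells, and because transcription is largely silent during the meiotic divisions, the proteins made at this time depend on which stored mRNAs are loaded on ribosomes.

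Libraries differed widely in depth. FPKM, which divides the reads of a gene by its exon length and by the mapped reads of the library, was deposited without counts. The steps between low values returned 1237530 to 18092866 reads per NP library and 163739 to 1549322 per P library, a span of 110-fold. P replicate 1 was the shallowest. There, 3 reads of a gene with 2 kb of exon correspond to 9.16 FPKM, against 1.31 in P replicate 2 and 0.968 in P replicate 3, so a value of 0 in P replicate 1 sets only a loose upper limit. Of 12 oocyte markers examined, all but *Figla*, which was at 0 in P replicates 1 and 3, were above 0 in every library. Of 15 granulosa and cumulus cell markers, 9 were at 0 in every library, *Foxl2*, *Fshr*, *Amh* and *Amhr2* among them. The other 6 summed to between 11.2 and 131 FPKM in NP and between 1.54 and 16.5 in P, and their part in the results below was not tested. The 8 blood and immune markers in the table were at 0 throughout.

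*Atr*, *Chek1*, *Brca1* and *Brca2* were above 0 in all 6 libraries, whereas *Trp53* and *Trp63* were above 0 in all 3 NP libraries and at 0 in at least 1 P library. The value of *Brca2* in P replicate 1 was 1 read. *Mre11a*, *Atm* and *Chek2* were at 0 in NP replicate 3 as well as in P replicate 1. All 9 members were above 0 in P replicate 2, but 5 were at 0 in P replicate 1 and 3 in P replicate 3. Of the 9 members, 8 had a mean above 1 FPKM in at least 1 fraction and entered the limma test of P against NP over 10578 genes. None of the 8 passed an adjusted p of 0.1 in either direction, where 0.0189% of all genes tested were called higher in P and 1.8% lower, and 1 of the 8, *Trp53*, had an unadjusted p under 0.05, as did 1669 of the 10578 genes tested. No member passed under any of the 12 alternative settings either, in which the lowest limma adjusted p of any member was 0.146. A p that misses the threshold does not show that the levels were alike. Over all genes, limma called 2 higher and 190 lower in P in this fit, which did not pair libraries. With a replicate block the split was 5 higher and 663 lower. Without the block it was 2 higher and 1 lower after median-of-ratios rescaling and 2 higher and 2 lower after quantile normalization.

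**Figure D1:**
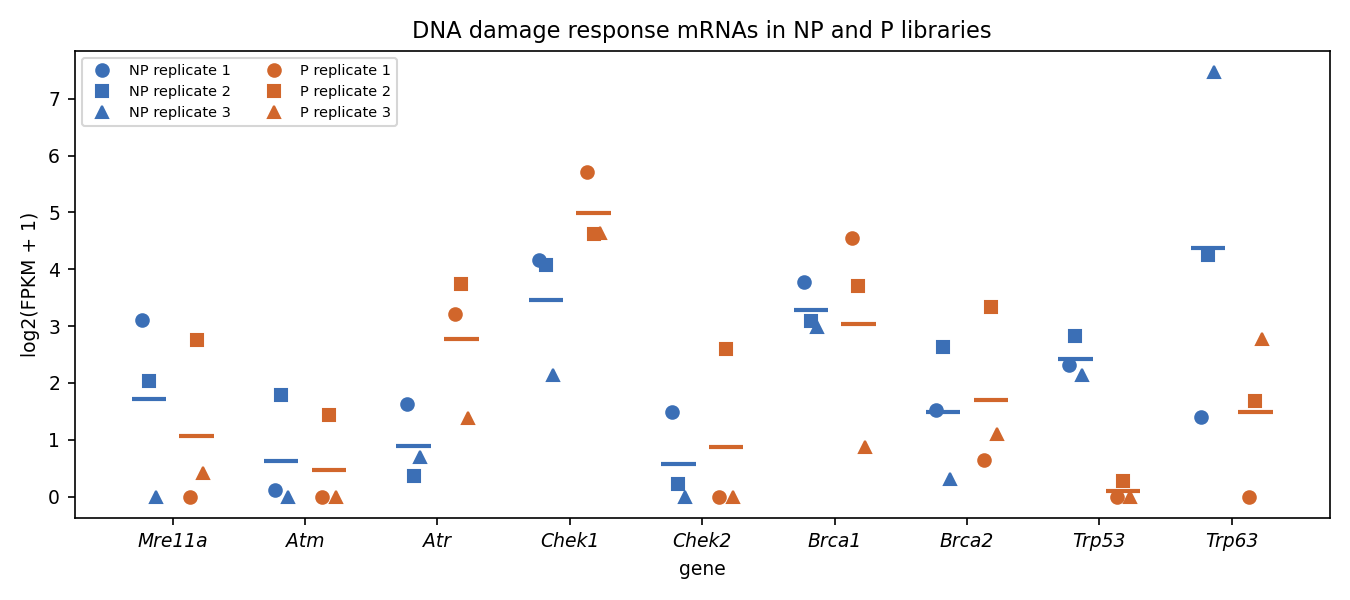
Level of each member in each library, as log2(FPKM + 1), with NP libraries in blue and P libraries in orange, a symbol per replicate and a bar at the mean of the 3 libraries. The 3 P points of Chek1 lie above its 3 NP points, and the 3 P points of Trp53 lie below its 3 NP points.

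*Chek1*, which encodes the kinase that ATR activates and that restrains CDC25 phosphatases, had the highest mean FPKM of the members in P. Its FPKM was 16.9, 15.9 and 3.39 in NP replicates 1, 2 and 3 and 51.2, 23.6 and 23.9 in P replicates 1, 2 and 3. All 3 P libraries were above all 3 NP libraries, a pattern found in 0.633% of the genes tested. The means were 12.1 ± 7.52 FPKM in NP against 32.9 ± 15.9 in P (SD, n = 3 each). The log2 ratio of P over NP on the log2(FPKM + 1) scale was 1.53 with an SE of 1.08 and an adjusted p of 0.468 in limma, and 3 libraries against 3 cannot give an exact two-sided permutation p below 0.1, the value found for *Chek1*. Without NP replicate 3, the lowest library, the log2 ratio was 0.87, and it was 2.48 after median-of-ratios rescaling and 2.61 after quantile normalization. The *Chek1* values rest on 39, 125 and 172 reads in P replicates 1, 2 and 3. In P its mean was exceeded by 1728 genes, and in NP by 4887.

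*Chek2* encodes the kinase that ATM activates. Its FPKM was 1.80, 0.172 and 0 in NP and 0, 5.07 and 0 in P, in replicate order. The only P library with signal was replicate 2, which held 13 reads, and the groups overlapped. In P replicate 1, 3 reads correspond to 8.15 FPKM, so a level like that of P replicate 2 was not detectable at that depth. In P replicate 3, also at 0, 3 reads correspond to 0.862 FPKM, so such a level would have been detectable there. For *Chek2* the log2 ratio was 0.30 (SE 0.89, limma adjusted p = 0.880). It was 0.00034 with a pseudocount of 0.1, 0.010 without NP replicate 3, 0.75 without NP replicate 1 and 1.03 after quantile normalization. The study lists *Chek2* among transcripts that separate P libraries of young and aged females, so its level in P is not independent evidence of a direction. *Chek1* was above *Chek2* in 6 of 6 libraries on the FPKM scale, which takes account of exon length.

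*Atr* encodes the apical kinase that answers single-stranded DNA. Its FPKM was 2.10, 0.287 and 0.623 in NP and 8.32, 12.4 and 1.60 in P. P replicates 1 and 2 were above every NP library, but P replicate 3 was below NP replicate 1. The P mean was 7.43 ± 5.44 FPKM (SD, n = 3). Its log2 ratio was 1.88 (SE 1.18), with a limma adjusted p of 0.429, and it was 2.58 without P replicate 3, 2.87 after quantile normalization and 0.95 with a pseudocount of 5. The P values rest on 11, 114 and 20 reads. In GENCODE M21, with 23629 merged exon bases, *Atr* shares 726 with the antisense gene *1700065D16Rik*. That gene was at 3.16 FPKM in P replicate 2 and 0 in the other P libraries. The *Atr* values were whole at 8075 exon bases, so the shared bases may lie outside the exons that were counted. The strand setting is not given in the sources used here either, so whether reads of the pair were mixed is not known.

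*Atm* encodes the apical kinase that answers double-strand breaks. Its FPKM was 0.0781, 2.44 and 0 in NP and 1.69 in P replicate 2, with 0 in P replicates 1 and 3. Its mean was under 1 FPKM in both fractions, so it was not tested. *Atr* was above *Atm* in 5 of 6 libraries, including the 3 P libraries. *Mre11a* encodes the nuclease of the complex that binds broken ends and recruits ATM. It was at 7.67, 3.09 and 0 FPKM in NP against 0, 5.79 and 0.328 in P. The groups overlapped, with a log2 ratio of -0.66 (SE 1.15, limma adjusted p = 0.775) that was 0.041 without NP replicate 1, -1.52 without NP replicate 3 and 0.80 after quantile normalization. *Mre11a* shares 154 exon bases with *Ankrd49* on the opposite strand. *Ankrd49* was at 1.38, 2.99 and 0.047 FPKM in NP against 0, 8.50 and 3.31 in P, and whether its reads enter the *Mre11a* values was not tested.

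*Brca1* encodes the ubiquitin ligase that promotes resection and recombination at breaks, and *Brca2* encodes a mediator of strand exchange during the same repair. *Brca1* was at 12.7, 7.48 and 6.94 FPKM in NP against 22.3, 12.0 and 0.838 in P. The P libraries held both the highest and the lowest value of the 6, and P replicate 3 rested on 11 reads. For *Brca1* the log2 ratio was -0.24 (SE 1.24, limma adjusted p = 0.933), and it changed sign when P replicate 3 was left out (0.84) and after rescalings that moved the median of all genes. *Brca2* was at 1.88, 5.24 and 0.246 FPKM in NP against 0.569, 9.15 and 1.14 in P. Its value in P replicate 1 is 1 read, and 3 reads there correspond to 1.71 FPKM. Replicate 2 was the highest library in both fractions. The log2 ratio was 0.20 (SE 1.17, limma adjusted p = 0.940), and it was -0.39 without NP replicate 3 and -0.62 without P replicate 2. *Brca1* was above *Brca2* in 5 of 6 libraries.

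*Trp53* encodes p53, the transcription factor that drives arrest and apoptosis genes after damage. Its FPKM was 3.99, 6.08 and 3.38 in NP, whereas in P it was 0.217 in replicate 2 and 0 in replicates 1 and 3. All P libraries were below all NP libraries, a pattern found in 23.2% of the genes tested. The NP mean was 4.49 ± 1.41 FPKM (SD, n = 3), the narrowest relative spread among the members in NP. The P value in replicate 2 is 1 read. For *Trp53*, 3 reads correspond to 4.53 FPKM in P replicate 1, 0.650 in P replicate 2 and 0.479 in P replicate 3, so P replicates 2 and 3 could have shown the NP level and P replicate 1 could not have shown that of NP replicates 1 or 3. The log2 ratio was -2.33 (SE 0.99) with an unadjusted limma p of 0.0271 and an adjusted p of 0.263, and the exact two-sided permutation p was 0.1, the smallest that 3 against 3 can give. The ratio was -4.92 with a pseudocount of 0.1, -0.89 with a pseudocount of 5 and -1.01 after quantile normalization. The study lists *Trp53* among transcripts that differ between P libraries of young and aged females, so its low level in P is not independent evidence of a direction.

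*Trp63* encodes p63, the p53 relative known for quality control of oocytes. It was at 1.64, 18.1 and 176 FPKM in NP against 0, 2.19 and 5.85 in P. The NP mean was 65.3 ± 96.4 FPKM (SD, n = 3), so a single library, NP replicate 3, set that mean. The groups overlapped, since NP replicate 1 was below P replicates 2 and 3. The log2 ratio was -2.89 (SE 1.43, limma adjusted p = 0.328), and it was -1.34 without NP replicate 3 and -4.38 without NP replicate 1. NP replicate 3 was also the library in which *Cyp19a1* and *Nr5a2*, from the list of granulosa cell markers, were highest, at 104 and 26.9 FPKM, while *Foxl2*, *Fshr*, *Amh* and *Amhr2* of that list were at 0 there as in every library. *Trp63* was above *Trp53* in 4 of 6 libraries.

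**Figure D2:**
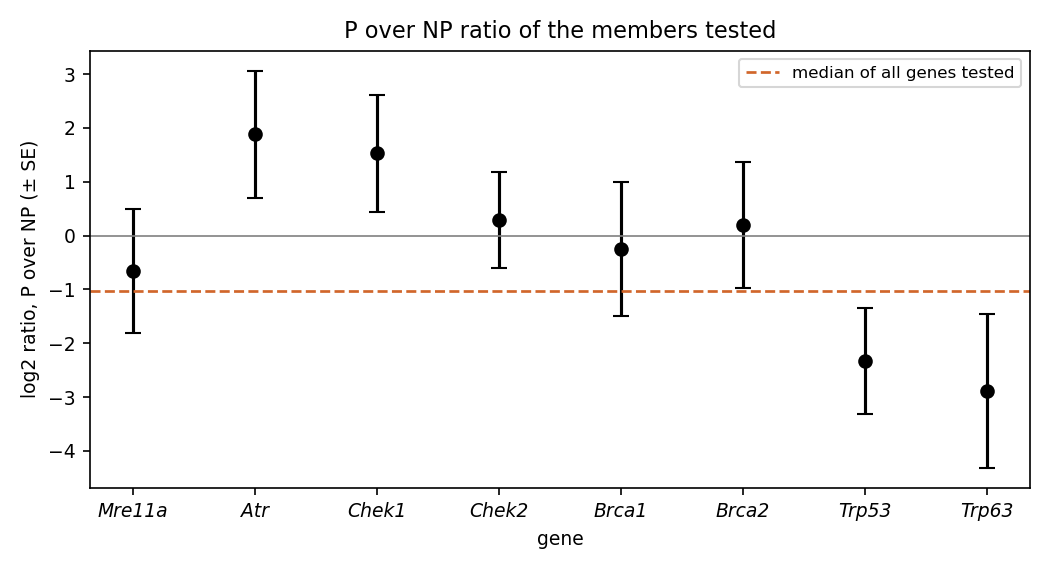
Log2 ratio of P over NP for the 8 members tested, on the log2(FPKM + 1) scale, with the SE of the limma fit. The dashed line is the median of all 10578 genes tested, at -1.03, and Atr and Chek1 lie highest while Trp53 and Trp63 lie lowest in this fit.

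The ratio of a typical gene was not 0. The median log2 ratio over all genes tested was -1.03, and it was -0.43 after median-of-ratios rescaling and 0.0027 after quantile normalization. Reported against this median, the members were at 2.91 for *Atr*, 2.56 for *Chek1*, 1.33 for *Chek2*, 1.23 for *Brca2*, 0.79 for *Brca1* and 0.37 for *Mre11a*, and at -1.30 for *Trp53* and -1.86 for *Trp63*. *Atr*, *Chek1*, *Brca1* and *Brca2* were above the median of all genes in 13 of 13 fits, and *Chek2* in the 12 fits that could include it. *Chek2* had a mean above 1 FPKM only in P (1.69 against 0.657 in NP), where replicate 2 alone held signal. All 12 fits hold that library, so its place above the median is not evidence of a direction. The fit with a replicate block repeats these positions by construction. *Trp53* and *Trp63* were above it in 0 of 13. *Trp63* came closest, at -0.0058 in the fit without NP replicate 3, so without that library it lay at the median. *Mre11a* was above it in 10 of 13. No member passed the test in any of these fits, so the positions describe these 6 libraries.

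**Figure D3:**
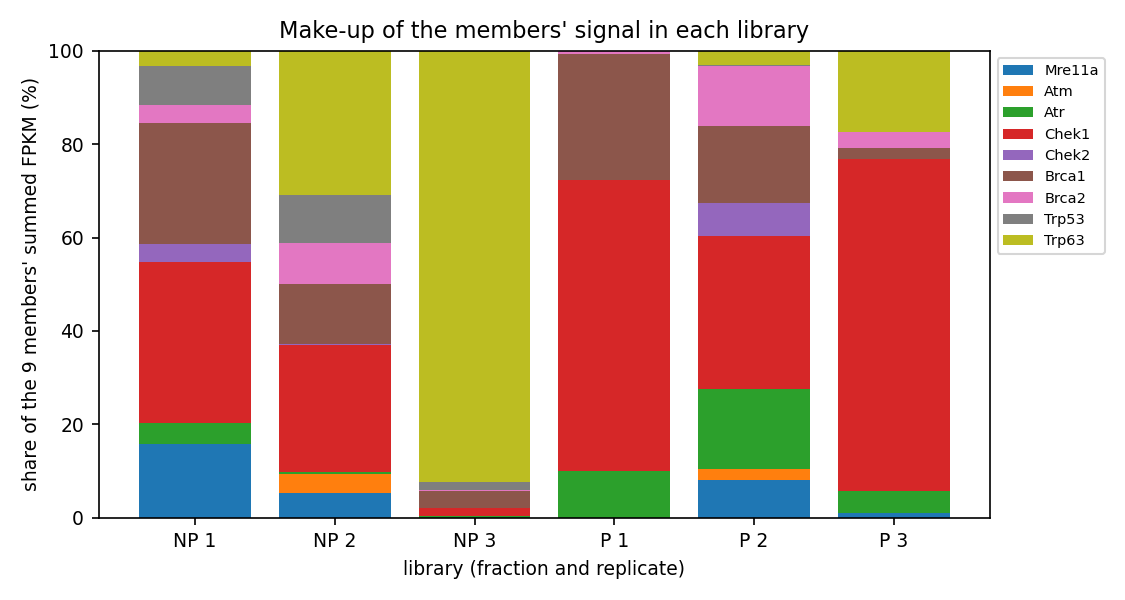
Share of each member in the summed FPKM of the 9 members, one stacked bar per library, in percent. Trp63 takes 92.4% in NP replicate 3, and Chek1 takes 62.1%, 32.7% and 71.0% in P replicates 1, 2 and 3.

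The make-up of the members' signal differed between libraries. The 9 members summed to 48.7, 58.8 and 190.8 FPKM in NP and to 82.5, 72.0 and 33.6 in P. *Chek1* was the largest contributor in each P library, at 62.1%, 32.7% and 71.0% of the sum. In NP it made up 34.6% and 27.1% in replicates 1 and 2 but 1.78% in replicate 3, where *Trp63* made up 92.4%.

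The 3′ ends of the members were examined because cytoplasmic polyadenylation elements (CPE), short U-rich motifs near the end of the 3′ UTR, are known to control the translation of stored oocyte mRNAs. The last 120 bases of the 3′ UTR were taken from GENCODE M21 on GRCm38, for the transcript with the longest coding sequence, and searched on the transcript strand only. A CPE-type motif, TTTTAT or TTTTAAT, was found in 2 of 9 members, *Brca2* and *Trp53*, against 19.9% of 19493 genes. A polyadenylation signal, AATAAA or ATTAAA, was found in 7 of 9, with *Atr* and *Chek1* as the exceptions, against 78.1% of genes. The windows with a CPE-type motif are shown, with that of *Trp63* as a member that lacks one, and capitals mark the motifs.
Brca2 (chr5:150569697-150569726, plus strand): ctacaactatcaTTTTATatacaaAATAAA
Trp53 (chr11:69591814-69591843, plus strand): ttttttacccctTTTTATatatcaatttcc
Trp63 (chr16:25892057-25892086, plus strand): ataaaatttaaaAATAAAtgaaaatacact
In both *Brca2* and *Trp53* the CPE-type motif lies upstream of a polyadenylation signal. The motif and the signal start 39 and 27 bases from the end in *Brca2* and 47 and 21 in *Trp53*. The *Trp53* window shown stops before its signal. The motif was thus present both in a member above 0 in all P libraries, by 1 read in P replicate 1, and in the member with the lowest mean in P. The matches are descriptions of these letters only.

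The other genes of the pathway were counted from 9 lists with 92 genes, of which 75 were tested. The 2 that limma called, *Kat5* and *Rad9*, were both lower in P, a direction in which 1.8% of all genes were called. The log2 ratio was positive for 20 and negative for 55, beside 2100 and 8478 of all genes tested, and the median was -1.08, beside -1.03 for all genes tested. All P libraries were above all NP libraries for 1 of the 75 and below them for 19, patterns found in 0.633% and 23.2% of all genes tested.

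*Kat5* encodes the acetyltransferase TIP60, which acts on ATM and on histones at breaks. It was at 49.9, 84.0 and 566 FPKM in NP against 6.08, 5.24 and 0.321 in P, with a log2 ratio of -5.12 (limma adjusted p = 0.0416). *Rad9* is a subunit of the clamp that helps to activate ATR. It was at 112.5, 152.1 and 157.3 FPKM in NP against 11.9, 2.57 and 10.1 in P, with a log2 ratio of -4.13 (limma adjusted p = 0.0505). Neither was called when any NP library was left out, with a pseudocount of 0.1, without the filter or after either rescaling, and *Rad9* was not called without P replicate 2. Over the alternatives the log2 ratio ran from -5.82 to -3.85 for *Kat5* and from -4.48 to -3.19 for *Rad9*. *Rad9* shares 225 exon bases with *Ppp1ca* on the opposite strand, which was at 714.5 to 1146.2 FPKM in NP against 56.5 to 278.9 in P, so the *Rad9* reads are uncertain. *Kat5* shares 426 with *Rnaseh2c*, which was at 5.00, 7.75 and 0.227 FPKM in NP and at 0 in P, below *Kat5* in every library.

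**Figure D4:**
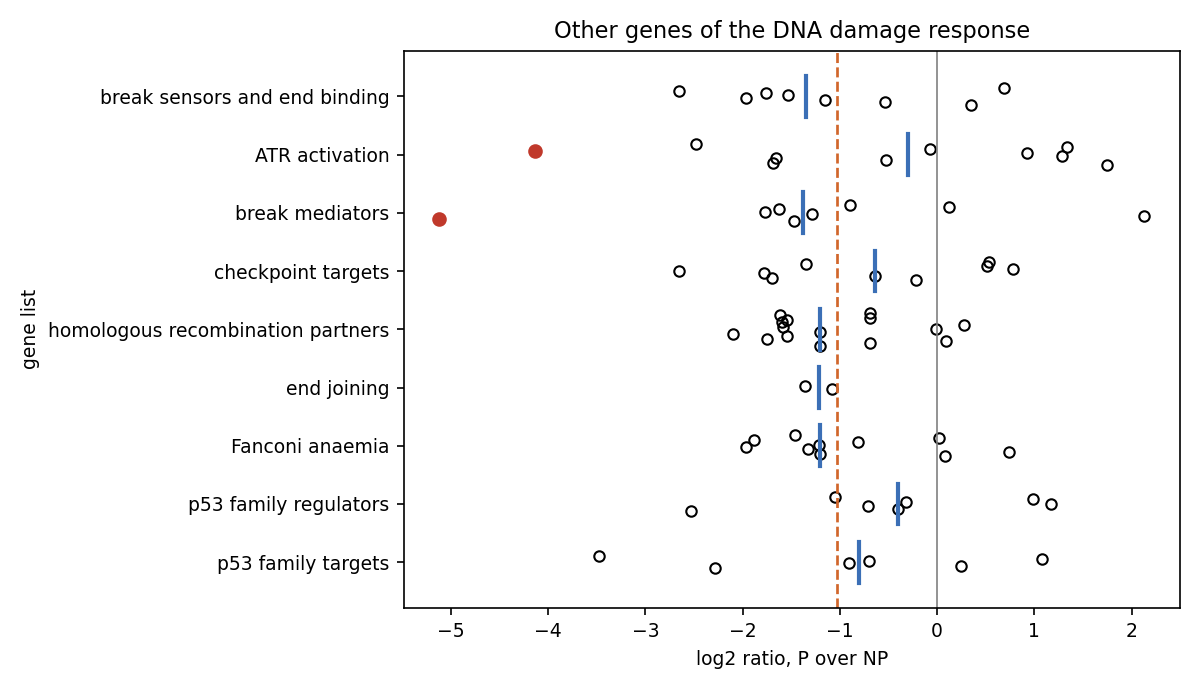
Log2 ratio of P over NP for the 75 other pathway genes tested, by list, with a blue bar at each list's median and a dashed line at the median of all genes tested, -1.03. The filled points are Rad9 and Kat5, the 2 genes past the adjusted p of 0.1, and both are below -4.

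*Topbp1*, which activates ATR, was at 17.6, 9.99 and 0.0473 FPKM in NP against 29.2, 18.3 and 4.94 in P, with a log2 ratio of 1.34 (limma adjusted p = 0.576). Over the alternatives that ratio ran from 0.080 to 2.49. *Atrip*, the obligate partner of ATR, was at 16.4, 4.66 and 0.762 FPKM in NP and listed at 0 in every P library. Its log2 ratio was -2.48 (limma adjusted p = 0.267, from -5.35 to -1.08 over the alternatives), against 1.88 for *Atr*. The difference between the genes was not tested. Of the other partners in the MRE11 complex, *Rad50* was highest in P replicate 3, at 9.01 FPKM, and at 0 in P replicate 1, and *Nbn* was listed at 0 in P.

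Among recombination partners, the values of *Bard1*, which encodes the partner of BRCA1, and *Palb2*, which links BRCA1 to BRCA2, overlapped between fractions, and neither gene passed the test. *Palb2* was at 4.02, 15.0 and 3.27 FPKM in NP against 1.13, 3.55 and 0.238 in P. Of the 17 genes of this list, 15 were tested, and 13 of these had a negative log2 ratio, beside 8478 of the 10578 genes tested.

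The p53 regulators *Mdm2*, *Mdm4* and *Usp7* were above 0 in all 6 libraries. *Mdm2*, the ubiquitin ligase that degrades p53, was at 27.7, 19.5 and 3.58 FPKM in NP against 43.3, 16.4 and 26.4 in P. *Mdm4*, its inhibitory relative, was at 114.1, 234.4 and 52.8 FPKM in NP against 126.9, 138.7 and 41.4 in P. Both overlapped between fractions. *Usp7*, the deubiquitinase of MDM2 and p53, was the 1 gene of the 75 with all P above all NP libraries, at 20.3, 20.4 and 9.83 FPKM against 21.2, 45.1 and 53.5 (log2 ratio 1.17, limma adjusted p = 0.533). It was picked out after its values were seen. *Trp73*, the remaining p53 relative, reached 3.66 FPKM in NP against 0.475 in P.

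Of 14 targets of p53, 6 passed the filter, beside 10578 of 25899 genes in the table. *Bbc3* and *Pmaip1*, which encode the death proteins PUMA and NOXA, were at 0 in all 6 libraries, and *Cdkn1a*, which encodes the inhibitor p21, was at 0.363 FPKM in NP replicate 1 only. *Bax*, an effector of apoptosis, was at 32.5, 59.7 and 4.46 FPKM in NP against 7.06 in P replicate 2, with 0 in the other P libraries. It was called only with a replicate block (log2 ratio -3.48, limma adjusted p = 0.0811).

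The most abundant of the other pathway genes in P were 3 checkpoint targets, the cell cycle regulators downstream of CHK1. *Ccnb1*, the cyclin of the meiotic kinase, averaged 1231 FPKM in NP against 386 in P. *Plk1*, the kinase that promotes entry into division, averaged 1175 and 309, and *Wee2*, the oocyte kinase that inhibits CDK1, averaged 401 and 157. Each was lower in all P than in all NP libraries, as were 23.2% of all genes tested. None was called in the fit without a replicate block, and *Plk1* was called with it (log2 ratio -1.78, limma adjusted p = 0.0905).

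The genes with the profile most like that of each member above 0 in all 6 libraries were ranked by Pearson's r of log2(FPKM + 1) over the 6 libraries. They were *Eif4a2* (0.988), *Arhgap9* (0.985) and *Cdc42* (0.982) for *Chek1*, and *Syncrip* (0.952), *BC031781* (0.951) and *Hook1* (0.951) for *Atr*. For *Brca1* they were *Med13* (0.989), *Rassf3* (0.989) and *Nlk* (0.978), and for *Brca2* they were *Ank* (0.992), *Becn1* (0.991) and *Frmd5* (0.983). These coefficients are the highest of 10578 genes over 6 points that share library depth, and describe likeness in these libraries only.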

How the data were processed

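Reads had been trimmed (Trim Galore 0.4.1) and mapped to GRCm38 (HISAT2 2.0.5) by the authors, who deposited the table as FPKM. Before that, RNA was depleted of rRNA and amplified as cDNA for Nextera libraries. The sources used here give neither the annotation release nor the strand setting. Because FPKM is scaled by everything mapped, RNA outside the listed genes lowers all values of a library. Mean columns per fraction, also by the authors, were not used.

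The 25965 rows held 66 symbols more than once, and the row with the highest mean stood for each. Exon lengths from GENCODE M21 were found for 22637 genes (87.4%). Depth was taken as the number that made most low values whole, and 63.2% to 69.4% of them were whole within 0.05 reads. Whether 1 step is a read or a fragment is not given, and exon length per member was the one that made its values whole. Counts over 200 are approximate, and limits of 3 reads cover counting error only.

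For the comparison of fractions, limma 3.58.1 (R 4.3.3) was fitted to log2(FPKM + 1), which makes ratios of low genes look smaller, with Benjamini-Hochberg adjustment over all genes with a mean above 1 FPKM in either fraction. Tests were two-sided with a threshold of 0.1. The fit was tested on simulated data. With a noise SD of 0.3 on the log2 scale, the fit recovered 200 of 200 genes set to differ by a log2 of 2, with 19 false calls. With a noise SD of 1.22 it recovered 1 of 200, with 0 false calls. At that noise the fit missed most differences of this size. Alternatives were pseudocounts of 0.1 and 5, no filter, median-of-ratios rescaling, quantile normalization, a replicate block and each library left out.

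The members and lists were chosen with earlier results of these data known. Genes named are the members, pathway genes past the threshold with or without the block, direct partners, the p53 targets *Cdkn1a*, *Bbc3* and *Pmaip1*, the 3 pathway genes with the highest P mean and the 3 genes most like each member above 0 throughout. *Rad9a* is in the table as *Rad9*. The values of 1 direct partner are not reported here. Calculations used Python 3.11.15, numpy 2.4.6, pandas 2.3.3 and matplotlib 3.10.9.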

Additional observations from a re-analysis of the deposited data

How the results depend on the processing

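No member was called under any of the 12 alternatives. The replicate block and the absence of a filter leave member ratios as they are by construction. *Brca1* (-0.24) turned to 0.013 with a pseudocount of 5, 0.55 after median-of-ratios rescaling and 1.20 after quantile normalization, and ranged from -0.99 to 0.84 with single libraries left out. *Mre11a* (-0.66) turned to 0.0033 and 0.80 under the same rescalings and ranged from -1.52 to 0.041 with single libraries left out. *Brca2* (0.20) ranged from -0.62 to 0.78 with single libraries left out, and was 0.90 and 1.72 after these rescalings. Over all alternatives *Atr* ranged from 0.95 to 2.87, *Chek1* from 0.87 to 2.61, *Trp53* from -4.92 to -0.89 and *Trp63* from -4.38 to -1.34. The members' median log2 ratio, -0.020, moved to 1.12 after quantile normalization and 0.59 after median-of-ratios rescaling, and ranged from -0.62 to 0.62 with single libraries left out. The cause was not tested.

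Of all genes, 192 were called (2 higher, 190 lower), against 69 (67 lower) with a pseudocount of 0.1, 3 (1 lower) after median-of-ratios rescaling, 4 (2 lower) after quantile normalization and 0 (0 higher, 0 lower) without a filter, where limma gave 1759 at an unadjusted p under 0.05. With single libraries left out the count ran from 1 to 331, with 0 to 4 higher and 1 to 328 lower. It was 4, 12 and 1 without NP replicates 1, 2 and 3, and 331 without P replicate 3. The pathway genes called, 2 in all, were 0 with a pseudocount of 0.1, without a filter and after either rescaling, and 0 to 2 with single libraries left out, with only *Kat5* called without P replicate 2.

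With a replicate block, 668 genes were called (5 higher, 663 lower) and 4 pathway genes, with *Bax* (log2 ratio -3.48, adjusted p = 0.0811) and *Plk1* (-1.78, adjusted p = 0.0905) added to *Kat5* and *Rad9*. Deviations from the fraction means correlated at 0.0634, 0.0991 and 0.116 for libraries with the same number and at -0.0886 to 0.0208 for the others. The study drew an NP and a P pool from each sample, so the fractions are paired by sample. Every library correlated best with its own number, a hint from the data, but no source used here says that the numbers match. Depth limits P replicate 1 most, and *Chek2* could not be tested without P replicate 2.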
